A study of Mus musculus with 5 samples.

Results

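Transcript levels of 39 interferon-response and antigen-presentation genes were read on arrays of cultured mouse rib chondrocytes (cartilage-forming cells) taken on days 2, 6, 9, 12 and 15. The genes were taken by symbol from a list that divides into effectors of the type I interferon response, factors of interferon signalling, GTPases, sensors of foreign RNA and the machinery of antigen presentation. Of the 39, 37 had at least 1 array probe set carrying their symbol alone, 61 probe sets in all, among 18193 genes with a probe set of their own. Isg15 and Ifi44 had none in the annotation used here and were not analysed. Of the 37, 32 reached the intensity filter that left 11075 genes for comparison, and Rsad2, Cmpk2, Parp14, Mx2 and Dhx58 lay below it.

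All cells came from rib cages of FVB embryos at gestational day 18.5, freed with collagenase and trypsin and strained, and were grown on gelatin in serum-containing medium with antibiotics, ascorbic acid and b-glycerolphosphate. No group was labelled as given interferon, a virus or any other stimulus, and by the labels the groups differ in time in culture alone. There was 1 array per day, and the labels do not say whether the dishes shared a cell isolate or how many embryos were pooled, so any difference between days stands without a replicate. In bulk RNA of this kind, more cells of a type and more RNA per cell cannot be told apart.

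Interferons are secreted proteins that act through cell-surface receptors and JAK kinases. Type I interferon acts on genes with interferon-stimulated response elements, through a complex that holds IRF9, and type II interferon on genes with gamma-activated sites. The genes so induced block viral replication, sense viral RNA, or equip the cell to cut proteins into peptides and show them on class I molecules to T cells.

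The arrays were alike in overall brightness, with median intensities from 106 to 118 and 58.8% to 61.9% of probe sets above a floor of 73.1. Intensities at or below this floor were set to it and have no order among themselves, and a fold against such a value is a lower bound, written "at least". Between the 2 probe sets of 3316 genes, the SD of a log2 difference from 1 probe set was 0.36 to 0.68, depending on the days compared. That SD leaves out variation between dishes and labelling. The labelled cell type carried its defining markers: Col2a1, the type II collagen gene, had intensities of 46505, 39066, 22143, 7510.3 and 17566 from day 2 to day 15, and Sox9, which drives cartilage genes, 4269, 2634, 1652, 1157 and 1291. All 6 chondrocyte markers were above the floor on every array, but 5 of the 6 were at least 2-fold lower on day 15 than on day 2. The sixth, the cartilage matrix gene Matn1, had 213, 1154, 2255, 874 and 745, 10.6-fold higher on day 9 than on day 2 and 3.03-fold lower on day 15 than on day 9, a course like that of many members described next.

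Most members were higher on day 9 than on day 2. Without the intensity filter, 32 of the 37 were at least 2-fold higher on day 9 and 1 was at least 2-fold lower, against 9.43% and 8.55% of all 18193 genes. Among the 32 above the filter, 31 were at least 2-fold higher and 0 lower, against 15.1% and 10.3% of 11075 genes, or 18.2% and 8.0% with each array centred on its median. Some members passed the filter only through the days on which they were bright, so the unfiltered count is the one that covers every measured member. The members were chosen with earlier results of these data known. A share above that of all genes could therefore come in part from the choice of list. The exception above the filter was Ifit2, an interferon-induced RNA-binding protein gene, with intensities of 609, 455, 843, 533 and 625 from day 2 to day 15, 1.39-fold higher on day 9.

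The day 9 array stood out within the course. Of the 37, 28 had their highest intensity on day 9, against 11.1% of all genes. Members were modestly higher by day 6 (10 of 37 at least 2-fold above day 2 and 1 below, against 7.27% and 5.27% of genes), much higher on day 9 than on day 6 (23 of 37 and 0 lower, against 3.84% and 3.71%), and then lower again. From day 9 to day 12, 7 of 37 were at least 2-fold lower and 0 higher, against 1.17% and 1.45% of genes. From day 12 to day 15 the counts were 9 and 0, against 2.78% and 3.16%. On day 12, 27 of 37 were at least 2-fold above day 2 and 1 below, against 10.3% and 9.36%. By day 15, 19 of 37 were still at least 2-fold above day 2 and 0 below, against 10.5% and 9.18% of genes, while 16 were at least 2-fold below day 9 and 0 above, against 2.71% and 3.63%. Taken from day 6 instead, 22 of the 32 above the filter were at least 2-fold higher on day 9 and 11 on day 15, against 5.87% and 8.42% of genes. These comparisons share arrays, day 2 or day 9, and are not independent of each other. The median log2 difference of the 37 from day 2 was 0.40 on day 6, 2.37 on day 9, 1.81 on day 12 and 1.02 on day 15, where the median over all genes was 0.

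**Figure D1:**
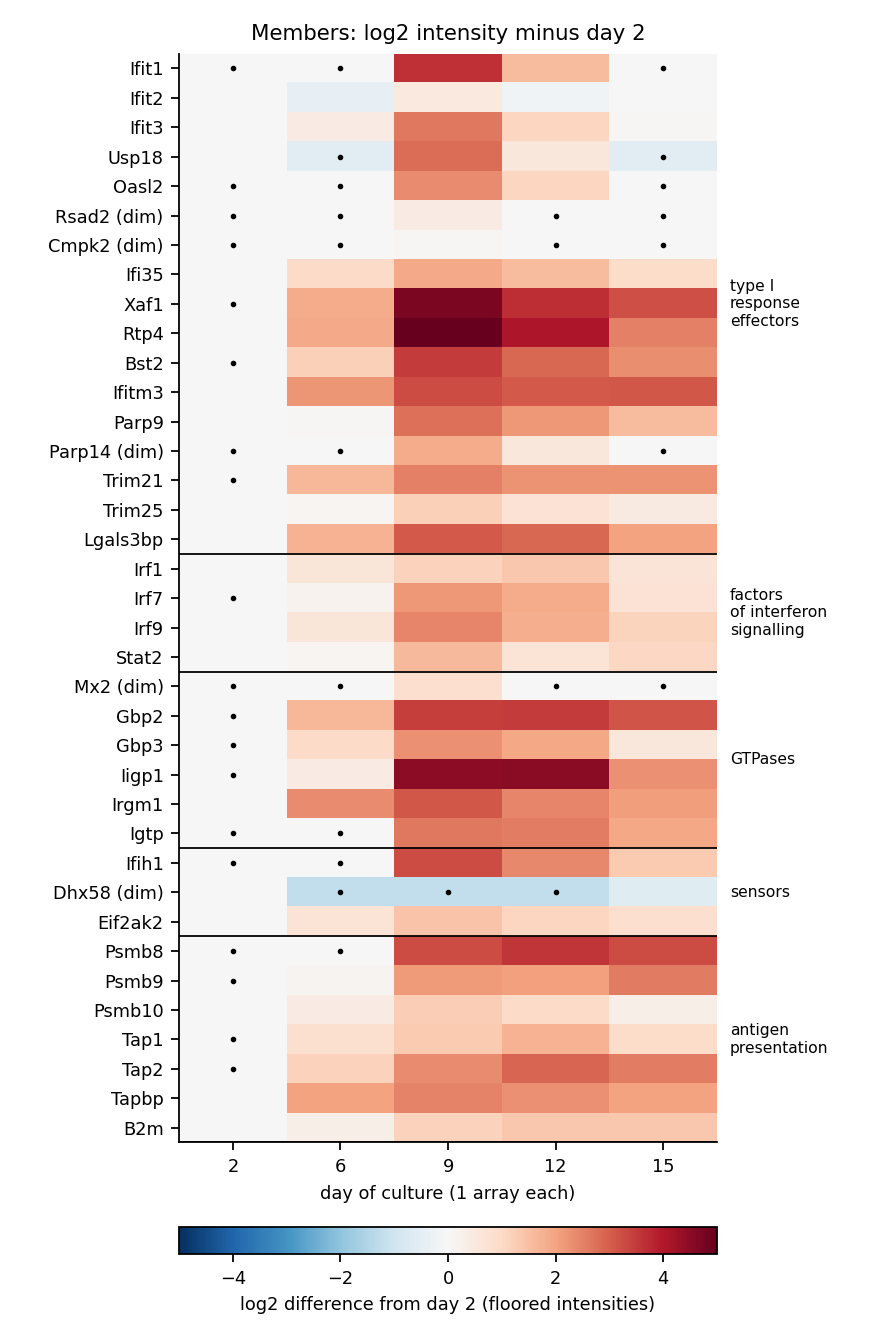
Log2 intensity of the brightest probe set of each of the 37 measured members minus its day 2 value, in columns by day (1 array each) and rows by class. Black dots mark intensities at or below the floor of 73.1, "dim" marks the 5 members below the filter, and 28 of the 37 rows are highest on day 9.

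**Figure D2:**
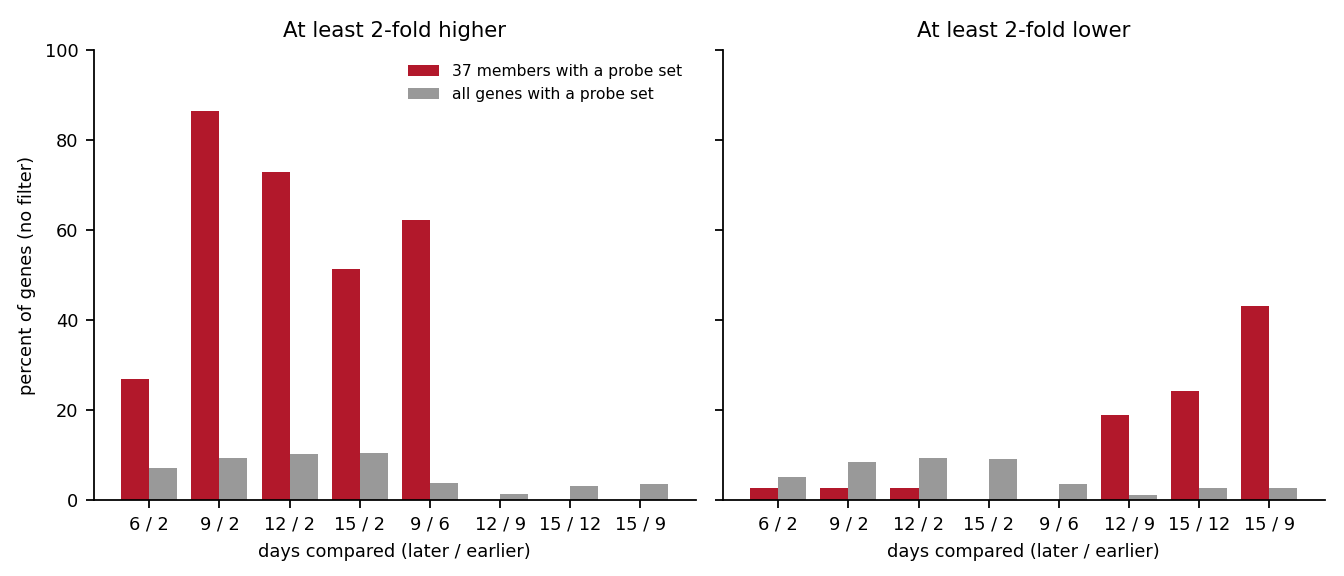
Percent of the 37 members (red) and of all 18193 genes (grey) at least 2-fold higher or lower between the days on the horizontal axis, with no intensity filter. The members stand at 32 of 37 for day 9 over day 2, where 9.43% of all genes are higher.

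The sequence before the members' start sites was read from RefSeq (build GRCm38.p6). It held a promoter window of 250 bases before to 50 after the start for 31 of the 39, Isg15 among them. The members were listed for their link to the interferon response. A motif share above that of all genes could therefore come from the choice of list, whatever the arrays showed. The core of the interferon-stimulated response element (GAAA, any 2 bases, GAAA) was searched on both strands. It was found in 15 of the 31, or 48.4%, and in 3.99% of 27025 genes of the same table. By class it was present in 7 of 15 effectors, 4 of 4 GTPases, 2 of 2 sensors, 1 of 4 signalling factors and 1 of 6 antigen-presentation genes. TTCNNNGAA, the core of the gamma-activated site, reads the same on both strands and was present in 8 of 31 members, or 25.8%, and in 9.55% of genes. A gene with more than 1 start site was counted once if any window held the motif. A match is a run of letters and not a measured binding site, and no match says only that these letters are not in the window.

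Below are the 160 bases before the start of 8 members from the effector, GTPase and antigen-presentation classes. No signalling factor or sensor is shown. All 8 hold a match, which not every member with a window does. Each is on the gene's own strand from 5′ to 3′, with matches to either motif in capitals. The first motif reads TTTC, any 2 bases, TTTC when it lies on the opposite strand, and overlapping or adjoining matches run together. Ifit1 lies at chr19:34640729-34640888, plus strand; Ifit3 at chr19:34583369-34583528, plus strand; Bst2 at chr8:71537473-71537632, minus strand. Gbp2 lies at chr3:142620503-142620662, plus strand; Irgm1 at chr11:48871421-48871580, minus strand; Igtp at chr11:58199396-58199555, plus strand. B2m lies at chr2:122147527-122147686, plus strand and Psmb8 at chr17:34198035-34198194, plus strand.
Ifit1: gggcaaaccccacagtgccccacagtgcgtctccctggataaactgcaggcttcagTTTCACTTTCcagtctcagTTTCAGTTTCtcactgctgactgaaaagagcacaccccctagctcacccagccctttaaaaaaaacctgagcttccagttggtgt
Ifit3: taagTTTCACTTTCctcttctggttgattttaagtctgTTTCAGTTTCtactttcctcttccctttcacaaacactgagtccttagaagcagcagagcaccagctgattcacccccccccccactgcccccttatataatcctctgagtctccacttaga
Bst2: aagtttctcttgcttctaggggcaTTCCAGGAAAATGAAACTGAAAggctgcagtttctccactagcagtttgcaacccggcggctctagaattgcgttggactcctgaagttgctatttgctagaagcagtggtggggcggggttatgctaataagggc
Gbp2: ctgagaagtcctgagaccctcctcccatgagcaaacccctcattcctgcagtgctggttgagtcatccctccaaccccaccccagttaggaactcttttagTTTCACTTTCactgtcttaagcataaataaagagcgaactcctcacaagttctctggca
Irgm1: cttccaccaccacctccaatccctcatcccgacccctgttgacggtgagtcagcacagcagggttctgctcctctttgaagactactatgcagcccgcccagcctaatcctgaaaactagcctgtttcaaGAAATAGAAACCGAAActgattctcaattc
Igtp: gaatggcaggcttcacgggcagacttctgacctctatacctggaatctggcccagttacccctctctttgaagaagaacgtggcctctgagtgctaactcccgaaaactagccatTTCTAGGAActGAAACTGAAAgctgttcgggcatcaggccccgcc
B2m: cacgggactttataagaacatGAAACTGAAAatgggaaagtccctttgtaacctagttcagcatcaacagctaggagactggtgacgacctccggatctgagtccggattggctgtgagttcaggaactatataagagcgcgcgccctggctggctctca
Psmb8: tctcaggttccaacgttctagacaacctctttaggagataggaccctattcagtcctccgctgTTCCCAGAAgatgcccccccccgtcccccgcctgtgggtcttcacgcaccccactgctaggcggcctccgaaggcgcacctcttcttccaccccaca
Ifit1 and Ifit3 each hold 2 separate copies of the first motif, the nearer one 85 and 122 bases before the start. Bst2 holds a gamma-activated site core that runs into 2 overlapping copies of the first motif, Irgm1 holds 2 overlapping copies 30 and 24 bases before the start, and Igtp holds 1 of each motif close together. B2m and Gbp2 hold 1 copy of the first motif each, and Psmb8 only the second motif.

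The type I response effectors were highest on day 9. This held for all 14 above the filter, against 14% of all genes. On day 9, 13 of 14 were at least 2-fold above day 2, against 15.1% of all genes. In 9 of the 14, day 9 was at least 2-fold above both day 2 and day 15, a shape found in 1.76% of genes. Ifit1, Usp18 and Oasl2, among the 9, passed the intensity filter only through day 9, which favours such a peak in the count. The class median of the log2 difference from day 2 was 2.76 on day 9 and 1.25 on day 15. Within the class the genes parted after day 9: some were back at their day 2 level by day 15 and others were not.

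Ifit1, whose protein binds viral RNA that lacks a host cap, had intensities of 12.5 on day 2, 13.9 on day 6, 929.8 on day 9, 216 on day 12 and 66.1 on day 15. It was at or below the floor on days 2, 6 and 15, so that day 9 stood at least 12.7-fold above day 2 and at least 12.7-fold above day 15. Ifit3, a partner of Ifit1, had 133, 178, 836, 279 and 138 from day 2 to day 15. Days 2 and 15 were alike for Ifit3, and day 9 was 6.28-fold above day 2. Usp18, the protease that strips ISG15 from proteins and damps the type I receptor, had 106, 65.7, 728, 159 and 20.1. It was at least 9.96-fold higher on day 9 than on day 6, and at the floor on days 6 and 15. Oasl2, of the oligoadenylate synthetase family, had 10.6, 21.1, 376, 153 and 71.7, which put day 9 at least 5.14-fold above day 2. For these 4 genes day 9 alone was far from the other days, and day 12 lay between day 9 and day 15.

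Rtp4 and Xaf1 had the largest folds, measured or as a bound, of day 9 over day 2 in the class and were still above day 2 on day 15. Rtp4, a chaperone-like gene strongly induced by interferon, had 95.5, 358, 3563, 1594 and 545 from day 2 to day 15, 37.3-fold higher on day 9 and 5.70-fold higher on day 15 than on day 2. Its other probe set had 103, 48, 131, 63.9 and 13.4, at or below the floor on 3 of 5 arrays. Xaf1, a pro-apoptotic interferon target, had 54, 262, 1921, 955 and 680.1, at least 26.3-fold higher on day 9. Its other probe set had 53.2, 79, 37.9, 80.1 and 80.0, at or below the floor on days 2 and 9 and just above it on the others. Both results therefore rest on 1 of 2 probe sets.

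A further set of effectors was at least 2-fold above day 2 on each of days 9, 12 and 15, and its members differed in how far they were below day 9 by day 15. Ifitm3, a membrane protein that blocks virus entry, had 1866, 8521, 17829, 15527 and 16068 from day 2 to day 15. It was 9.56-fold higher on day 9 and 8.61-fold higher on day 15 than on day 2, and days 9, 12 and 15 differed by no more than 1.15-fold. Trim21, an antibody-binding ubiquitin ligase gene, had 11.7, 234, 414, 347 and 349.9, at least 5.67-fold higher on day 9, with 2.76-fold by its other probe set. Bst2 (tetherin), which holds budding virus at the cell surface, had 26.3, 169, 826, 532 and 362, at least 11.3-fold higher on day 9 and at least 4.95-fold on day 15, which was 2.28-fold below day 9. Lgals3bp, which encodes a secreted glycoprotein, had 295, 989, 2485, 2169 and 1197, 8.41-fold higher on day 9 and 4.05-fold on day 15, which was 2.08-fold below day 9. In these 4 genes every day from day 6 on was above day 2, unlike Ifit1, Usp18 and Oasl2, which were at the floor on day 6. Parp9, given below, was also at least 2-fold above day 2 on days 9, 12 and 15, but only 1.04-fold on day 6.

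The remaining effectors ranged from bright to barely detected. Parp9, a macrodomain gene, had 150.0, 156, 1004, 674 and 454 from day 2 to day 15, level between days 2 and 6 and 6.69-fold higher on day 9. Its near neighbour Parp14, below the filter, had 11, 41.9, 266, 109 and 57.2, at least 3.63-fold higher on day 9. Ifi35 had 979.8, 1890.4, 3660.1, 2939 and 1838, 3.74-fold higher on day 9, and 3.0-fold and 3.07-fold by its other probe sets. The ubiquitin ligase gene Trim25, which activates RIG-I, had 851, 920.3, 1944, 1395 and 1174. It was 2.29-fold higher on day 9 by its brightest probe set and 2.48-fold by another, but 1.31-fold lower by the third. Rsad2 (viperin) and Cmpk2, adjacent genes that act in antiviral nucleotide chemistry, were dim: their brightest probe sets had 49.3, 31.2, 96.7, 54.2 and 21.7 and 23.4, 26.1, 76.2, 17 and 34.4, above the floor on day 9 only.

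**Figure D3:**
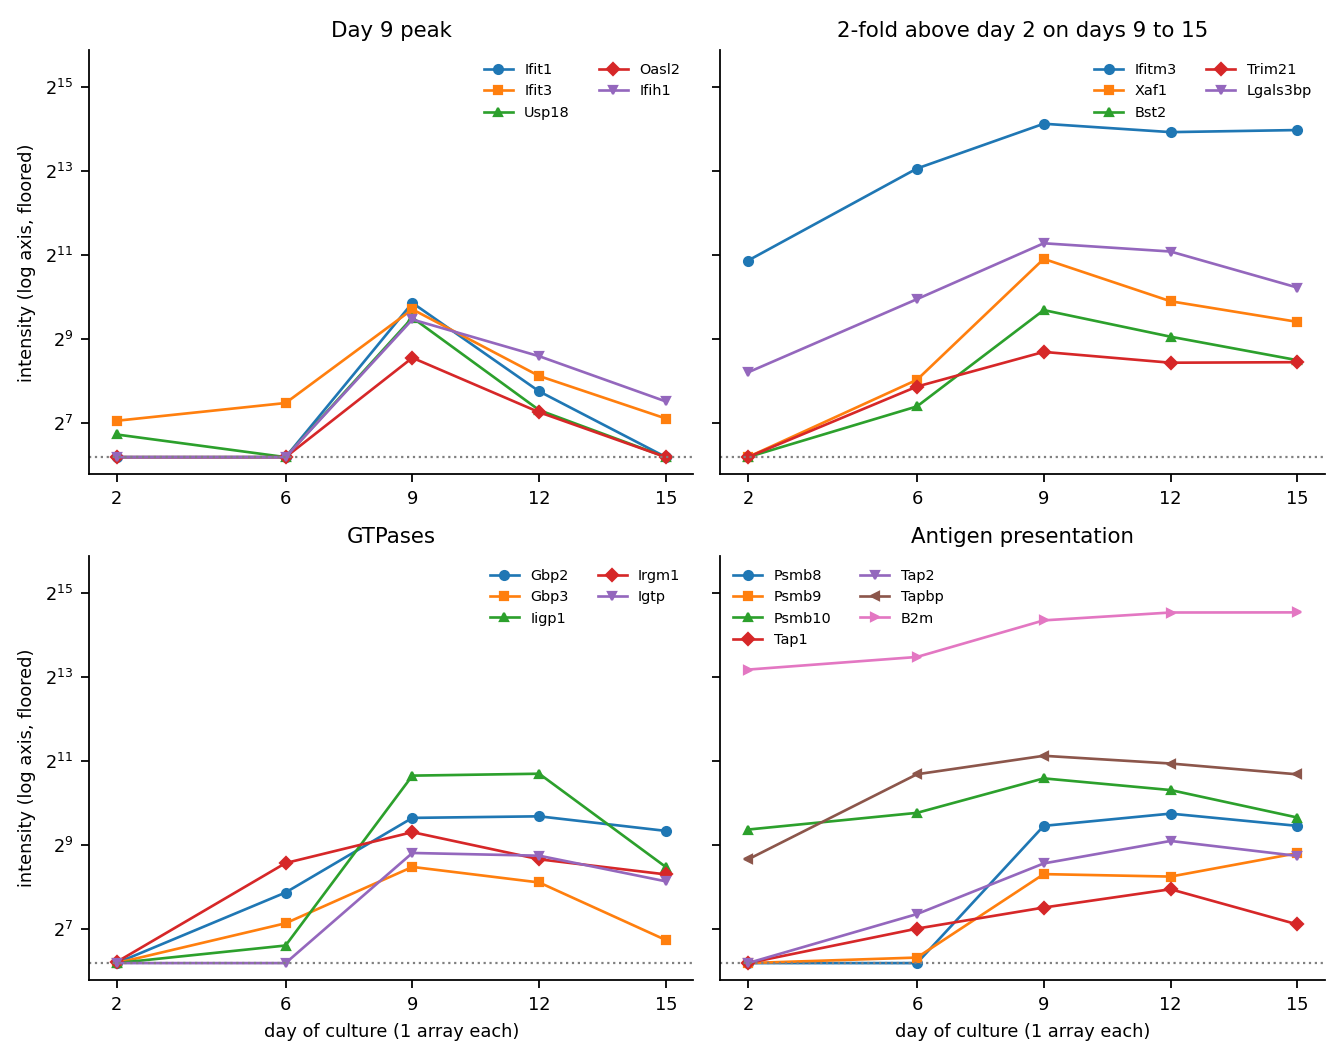
Intensity (log axis) by day for members of the effector, sensor, GTPase and antigen-presentation classes, 1 array per day; values under the floor of 73.1 (dotted) are drawn at it. Ifit1, Ifit3, Usp18 and Oasl2 are high on day 9 and back near their day 2 level by day 15, while Psmb8, Tap2 and B2m are at least as high on day 15 as on day 9.

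All 4 factors of interferon signalling were at least 2-fold higher on day 9 than on day 2, against 15.1% of all genes. Their median log2 difference was 1.88, where that of the effectors was 2.76. Irf7, the factor that amplifies type I interferon production, had 54.4, 83.1, 325, 265 and 119.9 from day 2 to day 15, at least 4.45-fold higher on day 9 and 2.71-fold lower on day 15 than on day 9. Irf9, the DNA-binding subunit of the type I complex, had 223, 338, 1219, 781 and 486, 5.46-fold higher on day 9. Its partner Stat2 had 125, 136, 382, 200.3 and 254, 3.04-fold higher, and at least 2.12-fold higher by its other probe set. Irf1, which drives antigen-presentation genes, was highest a step later, with 369.7, 566, 816, 930.4 and 579, 2.21-fold above day 2 on day 9 and 2.52-fold on day 12. The difference of Irf1 between days 9 and 12 was 1.14-fold, within the spread between probe sets.

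The GTPases, which attack the membranes around intracellular parasites, were higher on days 9 and 12 alike. All 5 above the filter were at least 2-fold above day 2 on both days (15.1% and 16.1% of all genes), and 4 of 5 still were on day 15 (16.2%). Gbp2, a guanylate-binding protein gene with the response-element core 59 bases before its start, had 6.06, 234, 801, 822 and 646 from day 2 to day 15. It was at least 11-fold higher on day 9 and at least 8.84-fold on day 15, and at least 7.84-fold on day 9 by its other probe set. Its close relative Gbp3, 1 protein-coding gene away, had 56.8, 141, 357, 276 and 107, at least 4.88-fold higher on day 9 and 3.34-fold lower on day 15 than on day 9. Guanylate-binding protein genes resemble each other, and the probe sets could pick up more than 1 of them.

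The immunity-related GTPases differed in when they were first high. Irgm1, which regulates the family, had 74.3, 380.3, 633, 405 and 315 from day 2 to day 15 and was already 5.12-fold above day 2 on day 6. Igtp (Irgm3) had 23.1, 41.6, 449, 429 and 281, at the floor on days 2 and 6 and at least 6.14-fold higher on day 9. Iigp1, an effector of the family, had 38.8, 97.7, 1608, 1659 and 356, 16.5-fold higher on day 9 than on day 6, level between days 9 and 12, and 4.66-fold lower on day 15 than on day 12. By its other probe set day 9 was 7.74-fold above day 6, and day 15 was 4.07-fold below day 12. Mx2, a dynamin-like antiviral GTPase gene, was below the filter with 52.6, 9.22, 129, 45.6 and 21.4, above the floor on day 9 only.

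Among the sensors, Ifih1 (MDA5), which recognises long double-stranded RNA, had 35.2, 34.1, 707, 386 and 183 from day 2 to day 15. Days 2 and 6 were at the floor, day 9 was at least 9.67-fold above them and day 15 3.86-fold below day 9. Eif2ak2 (PKR), the kinase that halts translation on binding double-stranded RNA, had 355, 569.5, 956, 739.9 and 639, 2.69-fold higher on day 9, and 2.01-fold and 2.19-fold by its other probe sets. Dhx58 (LGP2), a regulator of the same pathway, was the 1 member at least 2-fold lower on day 9, with 171, 4.87, 61.6, 57.2 and 112 by its brightest probe set. Its other probe sets had 20.3, 140.0, 134, 35.7 and 9.73 and 49.5, 22.7, 101, 31.6 and 5.47, which are higher on day 9 than on day 2, so that Dhx58 has no settled direction at this brightness.

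Antigen-presentation genes were higher from day 9, and most were still so on day 15. All 7 were at least 2-fold above day 2 on day 9, against 15.1% of all genes. On all of days 9, 12 and 15, 5 of 7 were, against 10.2% of all genes. None of the 7 was at least 2-fold lower on day 15 than on day 9, against 9 of 14 effectors and 4.05% of all genes. Ifit1, Usp18 and Oasl2, among the 9, passed the filter only through day 9, which favours a fall after it. With a filter on days 2, 6, 12 and 15, 12 of 29 members were at least 2-fold lower, against 3.75% of genes. With the main filter it was 15 of 32. The class median of day 15 minus day 9 was 0.00 on the log2 scale, against -1.17 for the effectors and -0.02 for all genes. The difference between the classes was not tested, since genes are not replicates of a condition. It is the same 2 arrays that are compared in both.

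**Figure D4:**
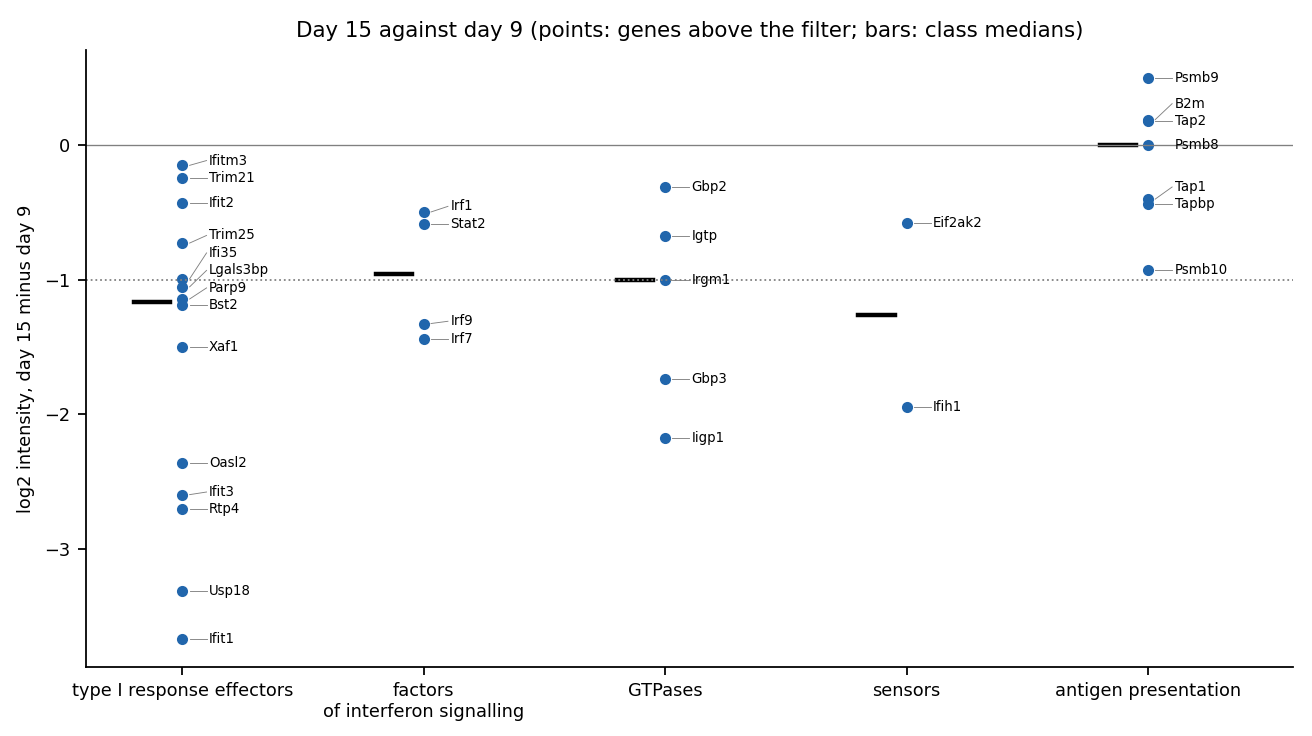
Log2 intensity on day 15 minus day 9 for each of the 32 members above the filter, by class; short bars are class medians and the dotted line marks 2-fold lower. No antigen-presentation gene reaches the dotted line, while Ifit1, Usp18, Rtp4, Ifit3 and Oasl2 lie beyond -2. Ifit1, Usp18 and Oasl2 passed the filter only through day 9.

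The inducible proteasome subunits replace standard ones and alter which peptides are cut. Psmb8 (LMP7) had 17.9, 47.2, 702, 859 and 702 from day 2 to day 15, at the floor on days 2 and 6, at least 9.61-fold higher on day 9 and the same on day 15. Its other probe set was at or below the floor on 4 of 5 arrays. Psmb9 (LMP2) had 19.2, 80.1, 317, 304 and 448, at least 4.34-fold above day 2 on day 9 and highest on day 15. Psmb10 (MECL-1) went differently, with 661, 870.3, 1537, 1268 and 806, 2.33-fold higher on day 9 and 1.22-fold on day 15. The standard subunits they replace, Psmb5, Psmb6 and Psmb7, were slightly lower on day 9 than on day 2, by 1.40-fold, 1.32-fold and 1.43-fold. Psme1, a subunit of the inducible proteasome cap, had 1524, 2717, 4146, 3539 and 3869, 2.72-fold higher on day 9 and 2.54-fold on day 15.

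Tap2 and Tapbp, of the peptide-loading machinery, were already higher on day 6. Tap2, a subunit of the transporter that brings peptides into the endoplasmic reticulum, had 17, 164, 378, 548 and 428 from day 2 to day 15, at least 2.24-fold above day 2 on day 6 and highest on day 12. Tap1, its partner, had 34.7, 129, 183, 247 and 138, at least 2.50-fold higher on day 9 by its brightest probe set, while its other 3 probe sets were at the floor on 3 to 5 of the 5 arrays. Tapbp (tapasin), which bridges the transporter and class I molecules, had 404, 1645, 2229.9, 1963 and 1642. It was already 4.07-fold above day 2 on day 6, and 3.59-fold by its other probe set. B2m, the light chain of class I molecules, had 9235, 11371, 20792, 23671 and 23716, 2.25-fold higher on day 9 and 2.57-fold on day 15, and both its probe sets gave this plateau.

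Some members are neighbours in the genome. Psmb9, Tap1, Psmb8 and Tap2 follow each other on chromosome 17 with no protein-coding gene between them. Between days 12 and 15 Psmb9 was 1.47-fold higher and Tap1 1.79-fold lower. Both differences were under 2-fold, and the SD from 1 probe set between these days was 0.43 on the log2 scale. Tap1 was read from its brightest probe set, its others being mostly at the floor. Ifit2 and Ifit3 are adjacent on chromosome 19, and day 9 stood 1.39-fold and 6.28-fold above day 2 in them. The neighbours Ifit2 and Ifit3 thus differed in how far day 9 stood above day 2, on 1 array per day.

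Class I heavy chains, which are not members, were also higher on the later days, to differing degrees. H2-K1 had 699.7, 2267, 5083, 6283 and 4126 from day 2 to day 15, 7.26-fold higher on day 9, and H2-D1 2874, 3648, 5131, 8205 and 5943, 1.79-fold higher on day 9 and 2.85-fold on day 12. H2-M3, a nonclassical chain, was highest on day 15 with 74.4, 222, 284, 321 and 587. Class I chains resemble each other closely and their probe sets may share signal. Of 12 further class I pathway genes measured, 4 were at least 2-fold higher on day 9 and 0 lower, against 15.1% and 10.3% of genes, and the general chaperones Calr, Canx and Pdia3 were within 1.30-fold of day 2. The fourth was the peptide-trimming protease gene Erap1, with 269, 345, 560.0, 543 and 193, 2.90-fold lower on day 15 than on day 9. Class II genes, used by dedicated antigen-presenting cells, were dim: 2 of 7 passed the filter. H2-DMa, which helps load peptides, was at least 2.22-fold higher on day 9, and Cd74 was 1.30-fold lower. H2-Aa and H2-Ab1 were under the floor on day 9 at 5.3 and 11.7. H2-Eb1 and Ciita went from under the floor on day 2, at 24.6 and 31.1, to 102 and 98.6 on day 9. Of the 7, 4 were above the floor on day 9 and 2 on day 2.

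**Figure D5:**
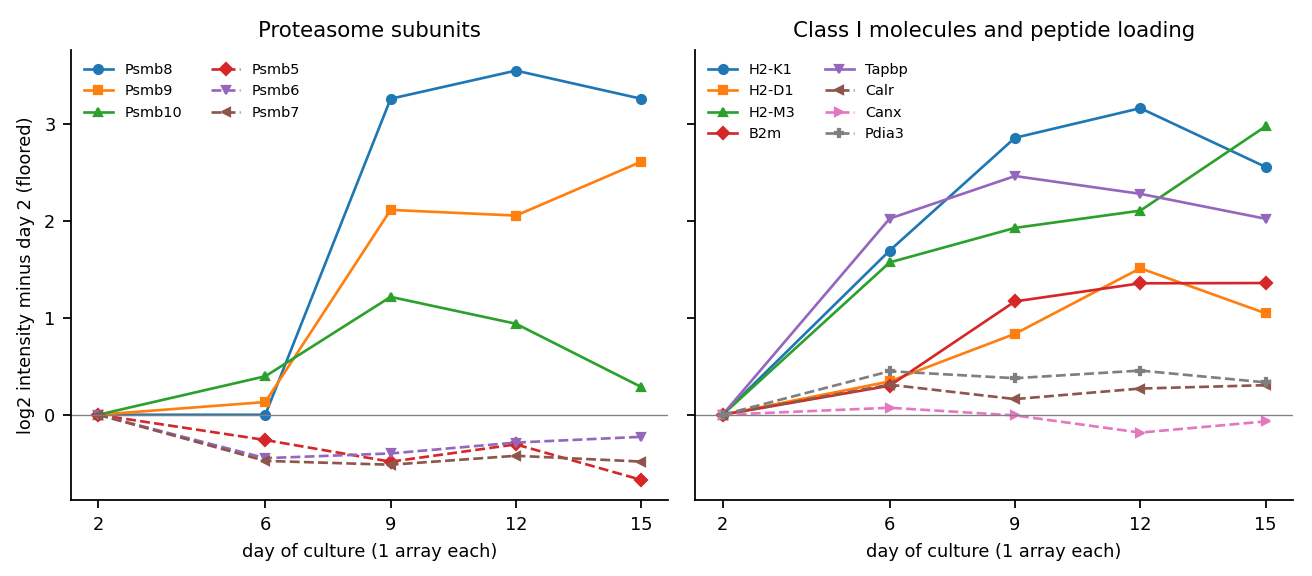
Log2 intensity minus the day 2 value, by day (1 array each), for inducible (solid) and standard (dashed) proteasome subunits on the left and for class I chains, loading factors and general chaperones (dashed) on the right. Psmb8 and Psmb9 are above 2 from day 9 on, while Psmb5, Psmb6 and Psmb7 stay below 0.

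Many other interferon-stimulated genes were higher on day 9 as well, in a list also chosen with earlier results of these data known. Of 46 listed, 39 had a probe set, and 21 of the 39 were at least 2-fold higher on day 9 than on day 2 and 1 lower, Sp110 (at least 2.18-fold), against 9.43% and 8.55% of all genes. Of the 25 that passed the filter, some only through their bright days, 20 were higher and 1 lower, against 15.1% and 10.3%. Gbp7 had 111, 133, 799, 642 and 472 from day 2 to day 15, 7.21-fold higher on day 9, and Parp12 162, 384, 1155, 836 and 545, 7.14-fold higher. Trim30a and Ube2l6, an ISG15-conjugating enzyme gene, were at least 5.30-fold and at least 5.28-fold higher. On day 15, 7 of the 25 above the filter were at least 2-fold below day 9 and 2 above it, against 4.05% and 5% of all genes.

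Transcripts for interferons themselves were not seen to go with the day 9 peak. Of 8 ligand genes with a probe set, 1 was above the floor on day 9, and Ifnb1, interferon beta, had 92.8, 76.3, 42.6, 51.4 and 67 from day 2 to day 15, below the filter. Ifnz, the only ligand above the filter, had 345, 257, 203, 181 and 93.3, highest on day 2. Ifng, interferon gamma, was at or below the floor on every array, with a highest value of 46.9 on day 2. Absent signal on the array does not show that no interferon was made or present in the serum-containing medium, which was not measured. The type I receptor genes were above the floor on every array: Ifnar1 had 565, 841, 980.2, 928 and 621, 1.73-fold higher on day 9, and Ifnar2 397, 955, 1192, 1302 and 1470.0, 3.70-fold higher on day 15. Ifnlr1, a type III receptor gene, was below the filter with 144, 36.5, 42, 85.8 and 92.1, at the floor on days 6 and 9. Of 13 receptors, kinases and feedback genes above the filter, 4 were at least 2-fold higher on day 9 (Ifnar2 at 3.0-fold, Ifngr2 at 3.56-fold, Stat3 at 2.75-fold and the feedback inhibitor Socs3 at 3.61-fold) and 1 lower, the phosphatase gene Ptpn6 (at least 2.83-fold), against 15.1% and 10.3% of genes. Among 14 upstream sensing genes, 3 were at least 2-fold higher (Myd88 at 2.73-fold, Sting1 at 2.24-fold and Tlr3, at least 2.23-fold) and 1 lower, Tlr9 (at least 4.43-fold), shares near the 15.1% and 10.3% of all genes.

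Markers of other cells that a rib isolate could hold were read on the same arrays. The sums given here were taken before flooring, so values under the floor, which have no order among themselves, enter some of them. Of 13 macrophage and myeloid markers with a probe set, 5 were above the floor on day 9. The summed intensity of all 13 was 1909, 1264, 846, 1462 and 1337 from day 2 to day 15. It was lowest on the day on which the members were highest. The 5 above the floor on day 9 were Cd68 at 179, Csf1r at 156, Lyz2 at 183, Cd14 at 76.3 and Fcgr1 at 77.6, and none of the 13 was at least 2-fold higher on day 9 than on day 2. Cd14 was 5.87-fold, Csf1r 2.44-fold, C1qb at least 2.64-fold and Adgre1 at least 2.12-fold lower. Among the 8 under the floor on day 9 were Ptprc, Itgam, C1qa, C1qb and Tyrobp, at 45.3, 22.2, 4.63, 8.34 and 13.5. On day 9, 1 of 9 lymphoid, 1 of 7 dendritic-cell and 1 of 7 endothelial markers was above the floor. The adipocyte sum moved with the members from day 6 to day 9. It was 2071, 3497, 25550.2, 59012 and 33745 from day 2 to day 15 over 6 markers, 4 of them above the floor on day 9. Most of the day 9 sum was Fabp4 at 17221.5 and Adipoq at 5191. Adipoq was 65.4-fold, Fabp4 64.5-fold and Retn at least 6.81-fold higher on day 9 than on day 2. Pparg was 1.57-fold higher, Cidec was under the floor on both days and Lep on every array. The fibroblast sum was also higher on day 9 than on day 6, with 7232, 40174, 107807, 132053 and 157156 over 7 markers, all above the floor on day 9. The 6 chondrocyte markers summed to 101462, 88793, 51472, 19943 and 32286, a sum that Matn1, with its day 9 peak, hardly enters. On day 9 the proteoglycan gene Acan was 9.32-fold and Hapln1 2.03-fold lower than on day 2. The collagen genes Col3a1, Col1a2 and Col1a1 were 60.4-fold, 51.4-fold and 49.9-fold higher on day 9, and Lum 15.0-fold. The other fibroblast markers were higher by less, Dcn by 10.3-fold, Pdgfra by 1.47-fold and Thy1 by at least 1.39-fold. Unlike most members, the adipocyte sum was highest on day 12 and the fibroblast sum on day 15. The part of these cells in the members' courses was not tested.

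A test across arrays was possible only for a smooth course on day. A straight line in day, fitted with limma to log2 intensities of the 5 arrays, called 0 of the 32 members above the filter at an adjusted p under 0.05, against 0.0542% of the 11075 genes. At an unadjusted p under 0.05, 10 of 32 members had a rising slope and 0 a falling one, against 27.1% of genes in either direction. The lowest limma adjusted p among the members was 0.076, for Psmb9. A straight line cannot describe a peak on a middle day. In simulated data, courses with a peak on a middle day were recovered neither by the line nor by a quadratic in day. The simulated courses were not those of the members, so they do not show why any given member was not called. With a quadratic in day, 18 of 32 members had an unadjusted p under 0.05, against 33.8% of genes. After adjustment limma called 7 of 32, against 6.37% of genes: Ifitm3 (adjusted p = 0.0251), Gbp2 (0.033), Lgals3bp (0.0333), Tapbp (0.0344), Trim21 (0.0344), Tap2 (0.0365) and Irgm1 (0.0382). All 7 were already at least 2-fold above day 2 on day 6, and the sharp peaks of Ifit1, Ifit3, Usp18 and Oasl2 gave limma adjusted p-values from 0.245 (Ifit3) to 0.4997 (Usp18). The peak of those 4 genes thus rests on the day 9 and day 12 arrays, with no test behind it.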

How the data were processed

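RNA from primary mouse rib chondrocytes was hybridised to 5 single-colour oligonucleotide arrays, 1 per day of culture. The deposited values were probe-set intensities on a linear scale, made by the authors using MAS5 (version not given in the sources used here) per the submitters' processing notes, and each array had a mean of 499.8 after trimming 2% at both ends. Such scaling hides a shift shared by most transcripts. Of 45101 probe sets, those with 1 gene symbol in the platform annotation were named, and symbols were updated through RefSeq (GRCm38.p6). Intensities were floored at 73.1, the 40th percentile, and put on a log2 scale. The brightest probe set stood for each gene, which was kept when its mean reached 105.93, the median over probe sets. With 1 array per day, differences of at least 2-fold were counted without a test, beside the share of all genes past it. Precision is limited by the number of arrays.

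Trends on day were fitted with limma 3.58.1 (R 4.3.3, lmFit, eBayes, Benjamini-Hochberg over 11075 genes) and checked on simulated data. In these, most straight courses were recovered, and courses with a peak on a middle day were not, by either fit. Counting used Python 3.11.15, pandas 2.3.3 and numpy 2.4.6, figures matplotlib 3.10.9. Members and gene lists were chosen with earlier results of these data known. Every measured member was accounted for, with its values on every day given where it differed at least 2-fold. From the other lists, the genes past the filter and at least 2-fold different on day 9 were named, the 4 largest a list. Stat3, Sp110, Hapln1 and the other genes named outside that rule were chosen after their values were seen. Promoters to print were also chosen after the values were seen.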

Additional observations from a re-analysis of the deposited data

How the results depend on the processing

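The counts and medians of members were recomputed with quantile normalization, median centring, a floor at the 20th or the 60th percentile, a pseudocount instead of any floor, probe sets averaged, no filter and a filter at the 70th percentile, and, chosen after seeing the data, a filter on days 2, 6, 12 and 15. No median changed sign. Under these settings 27 to 32 members were at least 2-fold higher on day 9 than on day 2, against 9.43% to 18.2% of genes. The exception was the filter at the 70th percentile, which leaves 19 members, with 18 of 19 against 14.2%. With that filter 8 of 19 were at least 2-fold lower on day 15 than on day 9, against 2.87% of genes. With day 6 as the reference 22 of 32 were at least 2-fold higher on day 9, against 5.87%. Members at least 2-fold higher on day 15 than on day 2 were 19 of 32 in the main setting, against 16.2% of genes. This count moved both ways with the floor. Lowering the floor to the 20th percentile gave 23 (17.0% of genes), and raising it to the 60th gave 12 (11.9%). A pseudocount gave 17 and median centring 20, while quantile normalization and averaged probe sets gave 19. The stricter filter gave 13 of 19, no filter 19 of 37, and the filter without day 9 gave 19 of 29. Counted from day 6 instead of day 2, 11 of 32 were at least 2-fold higher on day 15. With no filter 1 member, Dhx58, was at least 2-fold lower on day 9 than on day 2, against 8.55% of genes. Members with a trend were 0 for a line, against 0.0542% of genes, and 7 with a quadratic in day, against 6.37%. With any 1 array left out the line also called 0 members, against 0% of genes. With median centring the median log2 difference of day 9 from day 2 was 0.15 over all genes, where the members' median was 2.60. The filter on days 2, 6, 12 and 15 kept 29 members. Of these, 28 were at least 2-fold higher on day 9, against 14.6% of genes. No paired analysis was possible because each day has 1 array.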

Other observations

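A few interferon-stimulated genes that are not among the members departed from the day 9 course. Isg20, an exonuclease gene that degrades viral RNA, had intensities of 127, 276, 265, 299 and 1504 from day 2 to day 15, 5.67-fold higher on day 15 than on day 9. Slfn5, of the schlafen family, was at or below the floor on days 2 and 6 and had 251 on day 9, 597 on day 12 and 205 on day 15. Ifitm1, a relative of Ifitm3, was highest on day 15, with 81.8, 206, 229.7, 302 and 378. Ifi30, a thiol reductase gene of antigen processing, was 1.27-fold lower on day 9 than on day 2. Samhd1 and Adar, which limit the sensing of the cell's own nucleic acids, differed by no more than 1.01-fold between days 2 and 9. These genes were chosen after their values were seen, and none has a replicate check.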
